A study of Mus musculus with 4 samples.

Results

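The comparison described here is that of dexamethasone (Dex) with vehicle (Veh) in cells in which Arglu1 had been knocked down, siArglu1 Dex against siArglu1 Veh. It takes 2 of the 4 libraries of the study, chosen by their labels, and the siControl Veh and siControl Dex libraries are used beside it. Neuro-2a (N2a) is a mouse neuroblastoma line. The cells were transfected for 48 h with siRNA against Arglu1 or with a non-targeting siRNA, and then received 100 nM Dex or ethanol for 4 h. Each group is 1 polyA-enriched library made from the mixed RNA of 3 cultures, so that the siArglu1 pair has no replicates and no test between its libraries was possible. All 4 groups are of 1 cell line, and siRNA leaves part of the target in place. Reads on genes came to 66590878 in siArglu1 Veh and 86541444 in siArglu1 Dex.

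Dex is a synthetic glucocorticoid. It binds the glucocorticoid receptor, a nuclear receptor held in the cytoplasm by HSP90 chaperones, which then moves to the nucleus and binds palindromic response elements in DNA, where coactivators are recruited and target genes such as Fkbp5, Sgk1 and Tsc22d3 are transcribed within hours. ARGLU1 is a nuclear protein rich in arginine and glutamate that was studied as a coactivator of this receptor and as a regulator of alternative splicing. The siArglu1 pair addresses which part of the Dex response, in transcript levels and in splicing, is found when ARGLU1 is low.

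Each ratio below is the log2 ratio of Dex over Veh from reads scaled by TMM, with a prior count of 1. The interval printed beside it is an exact 95% interval computed from the reads of the 2 libraries, and such intervals hold for counting error only and leave out differences among cultures. A gene is said to have risen or fallen when its log2 ratio was at least 1 in size, which is a size rule with no test behind it. Values of the 4 libraries are listed with the siControl pair first (Veh, Dex) and the siArglu1 pair after it (Veh, Dex). Of 22667 genes listed, the 12497 with at least 75 reads over the 4 libraries were compared.

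Arglu1 itself, the target of the siRNA, had 10165, 11825, 2637 and 3254 reads. Both siArglu1 libraries were thus low in Arglu1, as labelled, and by mappable length the level was 23.8 cRPKM (RPKM corrected for mappable sequence) in siArglu1 Veh and 22.6 in siArglu1 Dex, against 92.6 and 99.9 in the siControl pair. Nr3c1, which encodes the glucocorticoid receptor, stood at 5.42 cRPKM in siArglu1 Veh and 5.96 in siArglu1 Dex, with a log2 ratio of 0.11 (0.03 to 0.18) that became -0.04 once the trend on transcript length was removed. Neuroblastoma and neuronal markers summed to between 1143 and 1621 cRPKM in the 4 libraries, and 16 markers of glia, fibroblasts, immune cells and endothelium to between 3.47 and 4.64, with 2 to 4 of the 16 at 0 reads in each library. The TMM factors lay between 0.984 and 1.01, but the siArglu1 Veh library stood apart from the others in its distribution over transcript length, which touches small ratios and is described further on.

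In siArglu1 cells, 41 genes rose after Dex, which is 0.328% of the genes compared, and 8 fell, 0.064%. The siControl pair had 40 rises, 0.32%. The rises included a phospholipase (Pla2g4d), a bile acid family transporter (Slc10a6), enzymes of tryptophan breakdown (Tdo2) and catecholamine synthesis (Th), a ubiquitin ligase of muscle wasting (Trim63) and the focal adhesion proteins of the tensin family (Tns1 and Tenc1). Most of these were low in N2a cells: 31 of the 41 had a mean below 1 cRPKM. In bulk RNA, a change in a few cells and a smaller change in all of them cannot be told apart. The counting interval lay above 0 for 35 of the 41. Over the whole table it lay above 0 for 26.2% of genes and below 0 for 26.6%, since at this depth even small ratios exceed counting error, and an interval on its own therefore sets few genes apart. The interval counts of gene lists below are to be read beside these shares.

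Pla2g4d, a cytosolic phospholipase A2 that releases fatty acids from membrane lipids, had the largest ratio. It had 3, 44, 8 and 433 reads. The siArglu1 Dex library was far above the other 3, and the log2 ratio was 5.20 (4.36 to 6.57) in siArglu1 and 3.42 (2.13 to 6.11) in siControl. The difference between these ratios, 1.78, had a counting interval of -0.08 to 3.63 that included 0. Slc10a6, which carries sulfated steroids into cells, was the best covered of the strong responders, with 28, 310, 132 and 864 reads. Both Dex libraries were above both Veh libraries. The ratio was 2.29 (2.03 to 2.58) in siArglu1 and 3.33 (2.81 to 3.98) in siControl, and the difference of -1.04 (-1.65 to -0.42) was larger than counting error, while its Veh level was already higher after knockdown.

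Hif3a, a hypoxia-inducible factor subunit that lacks a strong activation domain, had 0, 38, 2 and 54 reads, so that it was almost silent without Dex under either siRNA. Its log2 ratio in siArglu1, 3.84 (2.42 to 7.43), rests on 2 reads in Veh and depends on the prior count. Trim63, the muscle ubiquitin ligase MuRF1, had 4, 54, 2 and 19 reads. It rose in both pairs, by 2.39 (0.79 to 5.98) in siArglu1 and 3.38 (2.22 to 5.58) in siControl, with the higher Dex level in siControl. Tdo2, tryptophan dioxygenase, a classic glucocorticoid-induced enzyme of liver, had 18, 108, 32 and 166 reads. Its ratios were 1.93 (1.41 to 2.56) in siArglu1 and 2.43 (1.76 to 3.29) in siControl, and their difference, -0.49 (-1.39 to 0.40), was within counting error. Lrp4, a receptor of the LDL receptor family that acts in Wnt signalling and at the neuromuscular junction, had 19, 76, 21 and 188 reads. The Veh levels were alike under the 2 siRNAs and the ratio was 2.70 (2.10 to 3.48) in siArglu1 against 1.85 (1.16 to 2.71) in siControl. Fam13a, a RhoGAP family gene, had 34, 151, 67 and 226 reads. Its ratio of 1.33 (0.94 to 1.76) stood against 2.02 (1.51 to 2.63) in siControl, a difference of -0.69 (-1.35 to -0.03).

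**Figure D1:**
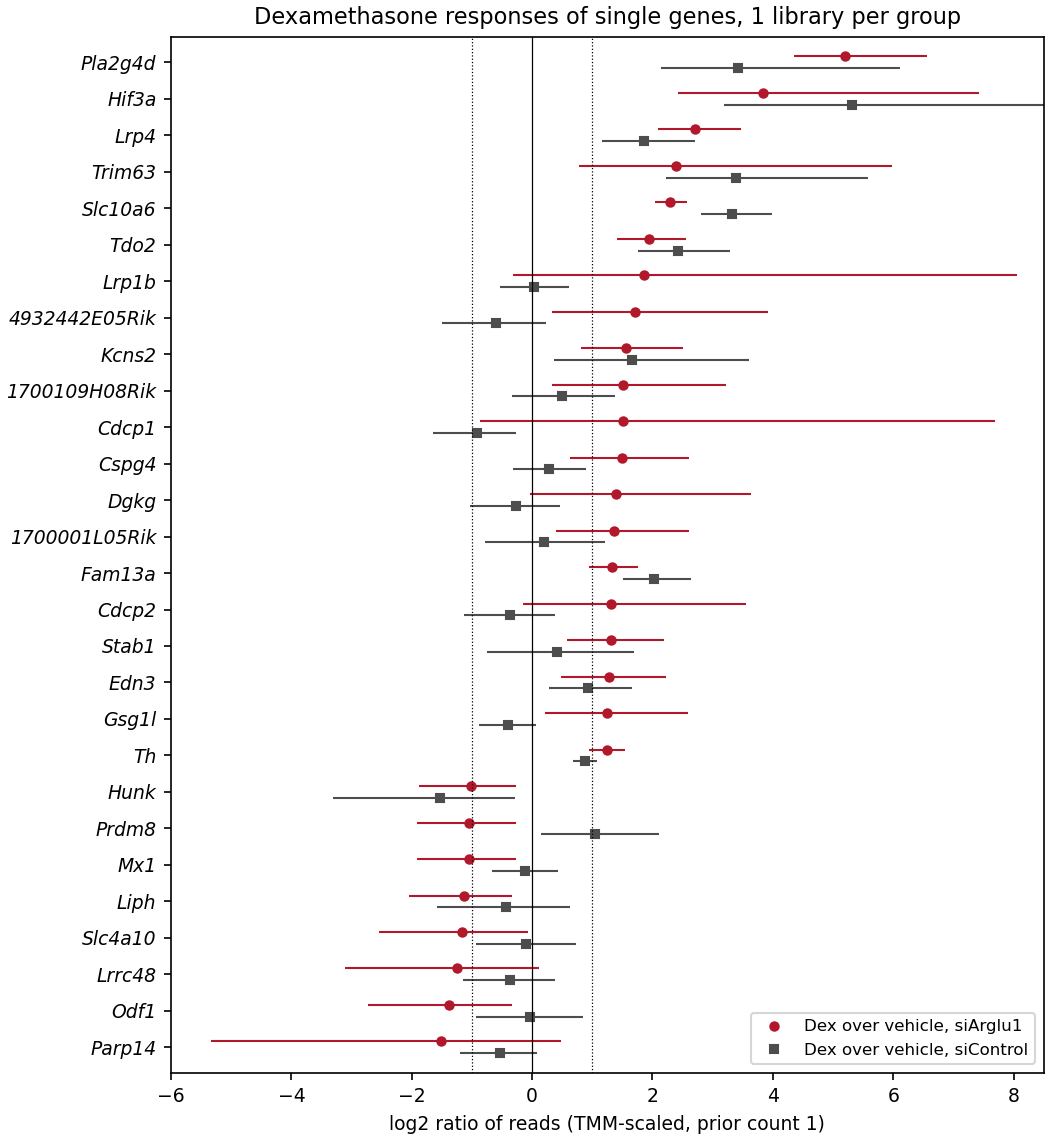
Log2 ratio of reads, Dex over vehicle, for the 20 largest rises and the 8 falls after knockdown (rows), with exact 95% counting intervals as lines, cut at the edges of the axis. Circles are the siArglu1 pair, squares the siControl pair, dotted lines a log2 ratio of 1 in either direction, and each pair is 1 library against 1. Pla2g4d, Hif3a, Lrp4, Trim63, Slc10a6 and Tdo2 were past 1 in both pairs, while Lrp1b, Cdcp1, Dgkg and Cdcp2 had intervals that included 0 in siArglu1.

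For the strong responders, the 250 bases before the RefSeq start site (GRCm38.p6, gene strand, 5′ to 3′) are shown because the receptor is known to bind imperfect palindromes of AGAACA. They were searched for the spaced palindrome ACANNNTGT, which reads the same on both strands, and for AGAACA on either strand. Capitals mark the matches. For Tdo2 and Pla2g4d the start used by the table was not matched to the start of a reference transcript. In Slc10a6 the AGAACA that starts 164 bases before the start overlaps the palindrome that starts at 161, and in Trim63 the palindrome at 206 overlaps a reverse-strand AGAACA at 200. Slc10a6, Th and Tenc1 (Tns2 in RefSeq) come from a rule of the largest rises among genes with a mean of at least 1 cRPKM, and Pla2g4d, Trim63 and Tdo2 were added after their values were seen.
Slc10a6, chr5:103629404-103629653, minus strand: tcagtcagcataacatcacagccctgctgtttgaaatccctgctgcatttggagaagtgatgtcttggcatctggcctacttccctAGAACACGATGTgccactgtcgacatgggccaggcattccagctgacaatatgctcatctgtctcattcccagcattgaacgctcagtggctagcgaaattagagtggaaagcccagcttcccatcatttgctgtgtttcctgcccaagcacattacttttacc
Trim63, chr4:134314870-134315119, plus strand: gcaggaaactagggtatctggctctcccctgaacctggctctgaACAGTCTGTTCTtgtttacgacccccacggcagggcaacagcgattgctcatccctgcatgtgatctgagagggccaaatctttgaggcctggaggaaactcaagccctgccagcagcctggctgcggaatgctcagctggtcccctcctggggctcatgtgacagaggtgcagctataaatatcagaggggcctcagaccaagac
Tdo2, chr3:81975729-81975978, minus strand: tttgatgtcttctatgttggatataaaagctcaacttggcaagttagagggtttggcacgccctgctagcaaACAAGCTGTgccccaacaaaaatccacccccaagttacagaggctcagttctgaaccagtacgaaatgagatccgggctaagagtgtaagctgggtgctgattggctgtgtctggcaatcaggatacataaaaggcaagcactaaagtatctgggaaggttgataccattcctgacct
Pla2g4d, chr2:120289070-120289319, minus strand: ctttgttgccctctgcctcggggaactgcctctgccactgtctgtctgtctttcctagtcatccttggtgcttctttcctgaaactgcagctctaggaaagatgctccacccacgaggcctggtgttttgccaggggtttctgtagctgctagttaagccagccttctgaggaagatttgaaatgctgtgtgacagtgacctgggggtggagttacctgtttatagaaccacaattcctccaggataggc
Th, chr7:142899996-142900245, minus strand: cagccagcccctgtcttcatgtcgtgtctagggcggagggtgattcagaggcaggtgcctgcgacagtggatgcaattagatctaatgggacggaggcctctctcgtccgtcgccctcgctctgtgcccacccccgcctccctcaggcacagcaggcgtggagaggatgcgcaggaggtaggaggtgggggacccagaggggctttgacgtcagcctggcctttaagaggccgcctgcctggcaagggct
Tenc1, chr15:102102684-102102933, plus strand: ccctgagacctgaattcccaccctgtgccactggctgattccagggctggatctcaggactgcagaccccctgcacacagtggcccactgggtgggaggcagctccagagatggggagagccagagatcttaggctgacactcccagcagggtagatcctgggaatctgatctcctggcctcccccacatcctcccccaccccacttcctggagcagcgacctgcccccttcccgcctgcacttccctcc
The rule also took Rtl1, Gm14401 and ENSMUSG00000067480. Of the 26 risen genes with a promoter matched by symbol, 5 held ACANNNTGT (Slc10a6, Trim63, Tdo2, 1700109H08Rik and E230001N04Rik) and 4 held AGAACA. Among all 32851 promoters of the same length, 5.84% held the first and 16.08% the second. A match in these letters is a description of the window and not a binding site.

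Several rises were of genes with neuronal or neuroendocrine roles. Th, tyrosine hydroxylase, the rate-limiting enzyme of catecholamine synthesis, had 303, 597, 124 and 391 reads. Its ratio was 1.24 (0.95 to 1.55) in siArglu1 and 0.88 (0.68 to 1.08) in siControl, yet the level in siArglu1 Dex, 2.54 cRPKM, only reached that of siControl Veh, 2.58. Adra2b, an adrenergic receptor, had 142, 313, 190 and 532 reads, with ratios of 1.07 (0.83 to 1.32) and 1.04 (0.75 to 1.34) that differed by 0.04 (-0.34 to 0.41). Htr3b, a subunit of the serotonin-gated ion channel, had 23, 56, 37 and 104 reads, and ratios of 1.06 in siArglu1 and 1.15 in siControl, a difference of -0.09 (-0.97 to 0.79). Kcns2, a modulatory potassium channel subunit, had 5, 19, 16 and 65 reads and ratios of 1.56 and 1.66, which differed by -0.10 (-1.67 to 1.47). All 3 rose under both siRNAs, and the intervals of the difference included 0 but were wide. Edn3, which encodes the peptide endothelin 3, had 28, 58, 16 and 53 reads, with a ratio of 1.27 (0.49 to 2.22) in siArglu1 and 0.93 (0.28 to 1.66) in siControl.

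Better covered rises had narrower intervals. Rtl1, an imprinted gene derived from a retrotransposon, had 1095, 2225, 442 and 1375 reads. It rose by 1.22 (1.07 to 1.38) in siArglu1 and had a ratio of 0.92 (0.82 to 1.03) in siControl, a difference of 0.30 (0.12 to 0.49), with the siArglu1 Veh library the lowest of the 4. Tns1 and Tenc1, tensins that link integrins to actin, had 1131, 2214, 897 and 2393 reads and 260, 735, 285 and 852 reads. Their ratios in siArglu1 were 1.004 (0.89 to 1.12) and 1.17 (0.97 to 1.37), against 0.87 (0.77 to 0.97) and 1.40 (1.19 to 1.61) in siControl. Both tensins were thus higher in each Dex library than in either Veh library. Rbm20, a splicing factor of heart muscle, had only 53, 108, 26 and 75 reads and ratios of 1.09 (0.46 to 1.82) and 0.92 (0.44 to 1.43).

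A separate set of rises showed no such pattern in siControl. Of the 41 risen genes, 13 were past 1 in siControl as well, which is 31.7% of the siArglu1 list and 32.5% of the siControl list, and 29 of the 41 (70.7%) had the same sign there, against 45.7% of all genes compared. In 28 of the 41 the siArglu1 Veh library was the lowest of the 4, and in 21 it was below siControl Veh by 0.81 or more. A rule on the ratio to that library favours this, and so does a read minimum over the 4 libraries that siControl reads can meet. Among all 12497 genes compared, it was the lowest in 31.2% and below siControl Veh by that much in 1096. Lrp1b, a large LDL receptor family member, had 50, 55, 1 and 8 reads, and its ratio of 1.86 had an interval of -0.31 to 8.06. Cdcp1, a transmembrane glycoprotein, had 52, 29, 1 and 6 reads, Dgkg, a diacylglycerol kinase, 34, 30, 4 and 16, and Gsg1l, a subunit associated with AMPA receptors, 88, 71, 9 and 30. In these genes knockdown had left few reads and the level in siArglu1 Dex stayed below both siControl libraries. They met the read minimum through their siControl reads. With 75 reads asked of the siArglu1 libraries, 19 genes rose and 0 fell. Cspg4, a chondroitin sulfate proteoglycan, had 43, 56, 12 and 47 reads and a ratio of 1.49 (0.62 to 2.61) against 0.28 (-0.32 to 0.89). Because a level in siArglu1 Veh enters both the Dex ratio and the knockdown ratio, low values of that 1 library raise the first and lower the second, and no correlation between the 2 was computed. An additive edgeR quasi-likelihood fit over the 4 libraries asks for a Dex effect common to both siRNAs and has 1 residual degree of freedom. It called 130 genes at an adjusted p of 0.05 (1.04% of those compared), and 18 of the 41 were among them. The fit includes the 2 libraries by which the 41 were picked, so the 18 are no separate support. A difference in response between the siRNAs, as in Slc10a6, goes into its error. The same design in DESeq2 called 51 genes higher and 1 lower, and its adjusted p was 0.172 for Trim63 and 1 for Kcns2, Htr3b, Edn3 and Rbm20, which edgeR had called. The adjusted p of edgeR was 1.07e-61 for Slc10a6 and 1.45e-12 for Th, and 0.999 for Lrp1b, Cdcp1, Dgkg and Gsg1l.

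All 8 falls were of genes with a mean below 1 cRPKM, and none was called by the additive edgeR fit. They were Parp14, Odf1, Lrrc48, Slc4a10, Liph, Prdm8, Mx1 and Hunk. Parp14 and Mx1 are interferon-stimulated genes. Mx1, a GTPase that blocks viral replication, had 59, 58, 35 and 22 reads and fell by 1.04 on the log2 scale (-1.92 to -0.27), while Parp14 had 52, 38, 6 and 2 and an interval of -5.34 to 0.49 that included 0. Hunk, a kinase related to SNF1, had 18, 6, 36 and 23 reads, and was the 1 gene past -1 in both pairs, with ratios of -1.02 (-1.88 to -0.26) and -1.54 in siControl. Prdm8, a transcriptional repressor of neurons, had 14, 32, 35 and 22 reads. It fell in siArglu1 by 1.04 and had a ratio of 1.05 (0.15 to 2.11) in siControl, so that Dex and Veh were in opposite order under the 2 siRNAs. The counting interval excluded 0 for 6 of the 8.

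Genes known as direct glucocorticoid targets in many tissues mostly had positive ratios after knockdown. Of the 28 tested genes on the list, 3 rose past the threshold (Hif3a, Trim63 and Tdo2) and none fell. Counting intervals lay above 0 for 18 and below 0 for 1, and the median log2 ratio was 0.25, against -0.00 for all genes, and 0.32 in siControl. Fkbp5, the immunophilin that feeds back on the receptor, had 6024, 10307, 6234 and 13232 reads. Its ratio was 0.68 under both siRNAs, with a difference of -0.00 (-0.06 to 0.06). Sgk1, a kinase that regulates ion transport, had 5110, 8714, 5716 and 12907 reads and ratios of 0.76 (0.72 to 0.81) in siArglu1 and 0.67 (0.62 to 0.72) in siControl. Bcl6, a transcriptional repressor, went from 100 to 254 reads, a ratio of 0.93 (0.59 to 1.28), and Klf9, a zinc finger repressor, from 99 to 240, 0.86 (0.52 to 1.22). Neither reached the threshold, although each was higher in both Dex libraries than in the Veh library of its siRNA. Tsc22d3, which encodes the anti-inflammatory protein GILZ, had a ratio of 0.25 (0.19 to 0.32) in siArglu1 and 0.10 (0.03 to 0.17) in siControl. Cdkn1a, the cell cycle inhibitor p21, had 0.45 (0.32 to 0.59) and 0.70 (0.56 to 0.84). Dusp1, a MAP kinase phosphatase, was at -0.08 (-0.19 to 0.04), and Klf15 and Zbtb16 had too few reads to be compared.

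Pnmt, the enzyme that makes adrenaline from noradrenaline and a known glucocorticoid target of the adrenal medulla, was an exception. It had 1, 89, 1 and 1 reads. The siControl Dex library thus stood alone, with a ratio of 5.45 (3.86 to 11.7) in siControl, and no ratio can be read from the siArglu1 pair at this depth. Asic5, an acid-sensing ion channel family member, had 9, 45, 36 and 76 reads and a ratio of 0.65 (0.08 to 1.28) in siArglu1 against 2.11 (1.17 to 3.44) in siControl. The difference was -1.46 (-2.62 to -0.30), and its siArglu1 Veh level was near that of siControl Dex. Rufy4, which takes part in autophagy, had 32, 109, 47 and 119 reads and ratios of 0.92 (0.43 to 1.45) and 1.64 (1.09 to 2.29). These genes come from the list of Dex-responsive genes that the study made from these libraries, and their siControl response here is not independent evidence. The study also measured changes by RT-qPCR, and reported that knockdown abolished the induction of Pnmt and decreased that of Trim63. By chromatin immunoprecipitation it found receptor recruited to a Pnmt response element with Dex, and less so after knockdown. Of the 9 listed genes reported here, 6 rose in siArglu1 and 9 were past 1 in siControl. Among the 40 genes past 1 in siControl, the siArglu1 ratio was above 0 for 34 and its counting interval lay above 0 for 23.

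Of 17 tested receptors, chaperones and steroid enzymes, which carry and handle the hormone, none passed the threshold, with 6 intervals above 0 and 8 below and a median of -0.02. Hsp90aa1 and Hsp90ab1, the chaperones of the unliganded receptor, had ratios of 0.01 and 0.02, and Fkbp4 and Ptges3, cochaperones, -0.05 and -0.12. Hsd11b2, which inactivates cortisol, had 34, 39, 32 and 76 reads and a ratio of 0.82 (0.22 to 1.48), against 0.10 (-0.60 to 0.81) in siControl. Inflammatory genes repressed by glucocorticoids in other cells were scarce, with 7 of 19 tested, none past the threshold, 2 intervals below 0 and a median of -0.12. Cxcl10, an interferon-induced chemokine, had 58, 22, 96 and 71 reads and a ratio of -0.84 (-1.31 to -0.39), and Il6, a cytokine, had 132 and 140 reads in siArglu1 and a ratio of -0.32 (-0.68 to 0.03). Among 20 interferon-stimulated genes, Mx1 and Parp14 fell and none rose, with a median of -0.06. Rsad2, an antiviral enzyme, had a ratio of -0.77 (-1.45 to -0.14), and Usp18, which removes ISG15 and dampens interferon signalling, 0.75 (0.29 to 1.25), against 1.40 (1.11 to 1.72) in siControl, so that the list did not move in 1 direction.

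Beside Th and Pnmt, the catecholamine and sympathetic genes had small ratios. Of 20 tested, 1 rose (Th), 6 had intervals above 0 and 7 below 0, and the median was -0.05. Chga and Chgb, granins of secretory vesicles, had ratios of 0.38 (0.36 to 0.40) and 0.19 (0.16 to 0.21) in siArglu1 and 0.49 and 0.22 in siControl. Dbh, which makes noradrenaline from dopamine, had 0.14 (0.06 to 0.23). Of 21 clock genes none passed the threshold, 10 intervals lay above 0 and none below, and the median was 0.07. Relative to the trend on length described next, 5 lay above and 2 below. Per2, a repressor of the clock, had 1025 and 1850 reads in siArglu1 and a ratio of 0.44 (0.33 to 0.55), against 0.09 (-0.02 to 0.20) in siControl. Bhlhe40, another repressor of clock genes, had 0.26 (0.16 to 0.37), and Clock, the activator, 0.22 (0.16 to 0.28). Clock and Per2 have long transcripts, and with that trend removed their values were 0.05 and 0.31. Among 32 immediate early genes, with a median of -0.04 and none past the threshold, 10 intervals lay above 0 and 8 below, with Egr1, a zinc finger factor, at 0.35 (0.20 to 0.49) and Klf2 at -0.41 (-0.82 to -0.00).

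Across the 12484 genes with a known mappable length, the Dex ratio in siArglu1 rose with the length of the transcript. Spearman's rho was 0.543 over these genes, which are not independent replicates, against -0.163 for Dex in siControl. The median ratio went up at every step over the 10 length deciles, from -0.18 in the shortest (median length 695 nt) to 0.18 in the longest (7339 nt). In the siControl pair the deciles ran the other way and over a smaller range, from 0.02 to -0.03. A positive ratio was found for 18.1% of genes in the shortest decile and 90.5% in the longest. The libraries differed in the same respect. The longest decile took 11.5%, 11.3%, 8.32% and 9.66% of all reads, so that siArglu1 Veh was lowest and siArglu1 Dex lay between it and the siControl pair. The correlation of the siArglu1 Dex ratio with GC content was only 0.07. With 1 library per group, the treatment and a property of the library cannot be told apart. With the trend removed, the counting interval lay above it for 19.6% of genes and below it for 21.4%. Large ratios hardly depended on it, since 38 of the 41 risen genes and 7 of the 8 fallen genes were still past 1.

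**Figure D2:**
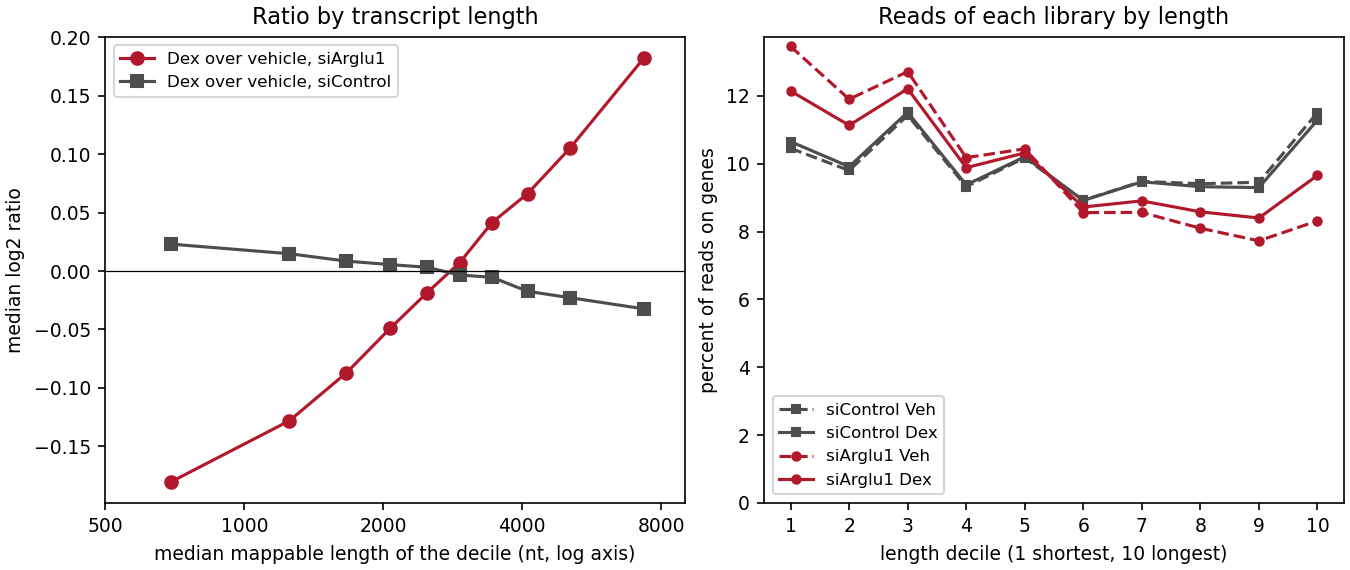
Left, median log2 ratio, Dex over vehicle, in 10 equal groups of genes by mappable length (nt, log axis), for siArglu1 (circles) and siControl (squares). Right, percent of all reads on genes that each library had in the same groups, from the shortest to the longest. The siArglu1 line climbs from -0.18 to 0.18, and in the longest group the siArglu1 vehicle library has the smallest share, 8.32%.

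Gene lists with short or long transcripts followed this trend. Of 77 ribosomal protein genes, which make up the ribosome and have a median mappable length of 402 nt, none passed the threshold, yet 69 intervals lay below 0 and none above, with a median of -0.21 in siArglu1 and 0.05 in siControl. Rpl38 had 63305 reads in siArglu1 Veh and 68137 in siArglu1 Dex, a ratio of -0.30 (-0.32 to -0.29). Rps2 and Rps18, with ratios of -0.33 and -0.32, share reads with many processed copies and are uncertain. The 73 oxidative phosphorylation genes, which encode the respiratory chain and have a median length of 705 nt, had 70 intervals below 0 and a median of -0.24, with Ndufa12, a complex I subunit, at -0.36 (-0.39 to -0.33). At the other end, the 31 chromatin methyltransferases and remodelers, with a median of 8457 nt, had 28 intervals above 0 and 1 below, and a median of 0.24. Kmt2d, a histone H3 lysine 4 methyltransferase, had 5944 and 11672 reads in siArglu1 and a ratio of 0.56 (0.52 to 0.61), and Chd7, a chromatin remodeler, 0.54 (0.48 to 0.61). Both had ratios near 0 in siControl, -0.04 and -0.10. Removing the length trend left medians of -0.05 for ribosomal, -0.07 for oxidative phosphorylation and 0.04 for chromatin genes. Relative to the trend, 38 of the 77 ribosomal intervals still lay below and 5 above, 48 of the 73 oxidative phosphorylation intervals below and none above, and 6 of the 31 chromatin intervals below and 15 above.

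Coregulators of nuclear receptors showed the same in part. Of 20 tested, none passed the threshold, 14 intervals lay above 0 and 5 below, and the median of 0.19 became 0.04 without the length trend. Crebbp, a histone acetyltransferase and coactivator, had 3760, 3582, 1480 and 2944 reads, a ratio of 0.58 (0.49 to 0.67) in siArglu1 and -0.17 (-0.24 to -0.10) in siControl. Ncoa2, the p160 coactivator TIF2, had 2537, 2523, 997 and 1943 reads and ratios of 0.55 (0.44 to 0.66) and -0.11 (-0.19 to -0.03). In both genes siArglu1 Veh was the lowest library and siArglu1 Dex stayed below the siControl pair, and with the length trend removed the values were 0.41 and 0.46. Ep300, another acetyltransferase and coactivator, had 0.37 (0.32 to 0.42), and 0.17 with the trend removed. Splicing regulators had 13 of 43 intervals above 0 and 16 below, against 26.2% and 26.6% of all genes, and a median of -0.00. Relative to the length trend, 7 lay above and 17 below, against 19.6% and 21.4% of all genes. Srrm2 and Srrm1, SR-related splicing coactivators, had ratios of 0.43 (0.41 to 0.46) and 0.29 (0.26 to 0.33), of which 0.23 and 0.27 remained without the trend.

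Of 24 cell cycle and replication genes, 15 intervals lay below 0 and 2 above, with a median of -0.06 both with and without the length trend, and none passed the threshold. In siControl the counts were also 15 below and 2 above, with a median of -0.04. Cdk1, the mitotic kinase, had a ratio of -0.22 (-0.24 to -0.20) in siArglu1 and -0.01 (-0.04 to 0.01) in siControl, and Pcna, the replication clamp, -0.18 (-0.21 to -0.16) and -0.00. Without the length trend these values in siArglu1 were -0.22 and -0.08. No stress response gene passed the threshold either, and 11 of 19 intervals lay below 0 and 1 above, for a median of -0.06, with Ddit3, the factor CHOP, at -0.27 (-0.33 to -0.20) and Atf4 at -0.19 (-0.21 to -0.18). Relative to the length trend 9 intervals lay below and 4 above. The median became -0.0022, with Ddit3 at -0.10 and Atf4 at -0.11. Cholesterol and fatty acid synthesis genes had 6 of 19 intervals above 0 and 7 below, none past the threshold, and a median of 0.01. Fasn, fatty acid synthase, had a ratio of 0.40 (0.38 to 0.42), or 0.18 without the trend, and Fdps, of the mevalonate pathway, -0.16 (-0.19 to -0.14), or -0.03 without it. Smooth muscle contractile genes, again none of them past it, had 5 of 17 above 0 and 9 below and a median of -0.06, with Cnn1, calponin, at 193 and 194 reads in siArglu1 and a ratio of -0.40 (-0.70 to -0.11).

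Splicing was measured as PSI (percent spliced in), the share of a gene's transcripts with a given exon or splice site. An event was compared if every library had a PSI for it and 3 or more scored at least LOW for coverage, which left 57183 events, and a change of at least 15 between siArglu1 Dex and siArglu1 Veh counted as a size rule. PSI was higher with Dex in 294 events (0.514%) and lower in 248 (0.434%), in 474 genes. In siControl 411 events changed by that much (0.719%). The median change over all events was 0.52 in size. By type, 83 simple cassette exons were higher and 74 lower of 24614, 73 and 43 complex cassettes of 8061, 81 and 60 alternative 3′ splice sites (Alt3) of 14122, 55 and 66 alternative 5′ splice sites (Alt5) of 10088, and 2 and 5 microexons of 298. Among the simple cassettes past the rule, 54.2% of those higher and 55.4% of those lower had a length that is a multiple of 3, against 40.6% of all simple cassettes compared, with median lengths of 107, 105 and 114 nt. None of the 474 genes was also past the expression rule. That rule took 0.328% of the genes compared as rises and 0.064% as falls. At these shares few or no shared genes would be found in any case, so that the lack of overlap says little.

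The events past 15 were mostly those with low coverage scores. The read ranges given with the scores are those of alternative splice sites, since cassette exons and microexons list a score alone. Where the weaker of the 2 siArglu1 libraries had the score N (0 to 9 junction reads), 8.0% of events were past 15, and the share was 5.85% at VLOW (10 to 19 reads), 3.05% at LOW (20 to 39), 0.664% at OK (40 to 99) and 0.045% at SOK (100 or more). Of 262 changed Alt3 and Alt5 events, for which reads are given, 16 had exact binomial intervals of PSI in Veh and Dex that did not overlap. Over all 24210 such events compared, 62 had separate intervals. The siControl pair moved the same way in 254 of the 542 events (46.9%) and the opposite way in 265. That share was not computed over all events, so nothing is drawn from it. Both pairs were past 15 in 73 events, 13.5% of the siArglu1 list and 17.8% of the siControl list. Over all events compared, 0.719% were past 15 in siControl and 0.948% in siArglu1. Of the 68 with the same site past 15 in both, 27 had the same sign.

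**Figure D3:**
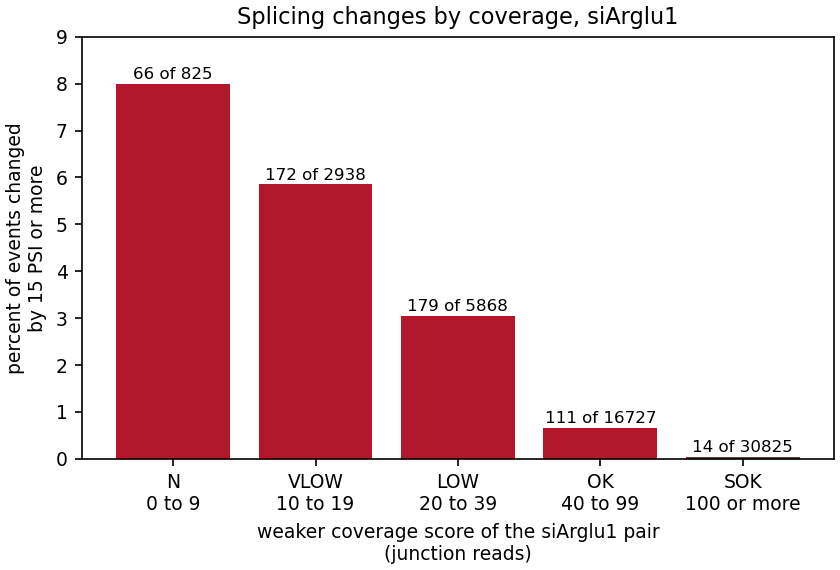
Percent of events whose PSI changed by 15 or more between siArglu1 vehicle and Dex, by the weaker coverage score of the 2 libraries (junction reads per score below each bar, from the alternative splice site tables). The numbers above the bars are changed events of those compared, and the bars fall from 8.0% to 0.045% as coverage grows.

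Among events scored at least OK in both siArglu1 libraries, Heatr7a (Mroh1) had the largest rise, in a cassette exon of 145 nt at chr15:76257942-76258086 (mm9). Its PSI was 100, 97.0, 51.7 and 100. The siArglu1 Veh library alone differed, and it was the least covered, with OK against SOK in the others. Rg9mtd3, a tRNA methyltransferase gene, had an Alt3 site 3 nt away at chr4:45327155-45327278, with PSI of 40.3, 65.7, 49.6 and 97.8. Here the Dex library was higher under both siRNAs, with intervals of 37.6 to 61.8 from 71 reads and 92.5 to 99.7 from 96 reads in siArglu1, although complex reads were noted in the other 3 libraries. Kifc3, a minus-end-directed kinesin, had 2 cassette exons at chr8:97650426-97650607 and chr8:97653096-97653234 that moved together. They went from 37.7 to 71.4 and from 36.6 to 68.6 in siArglu1, and from 40.9 to 42.4 and from 41.4 to 44.6 in siControl, so that siArglu1 Dex alone was high. Both exons had complex reads and unbalanced junctions in every library. Phc1, a polycomb protein, had a microexon of 9 nt at chr6:122288490-122288498 with PSI of 22.6, 32.7, 0 and 26.5, the siArglu1 Veh library being the low one.

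In Efha2 (Micu3, a mitochondrial calcium uptake regulator) and 2610507B11Rik, too, siArglu1 Veh was low, with cassette PSI of 94.0, 96.8, 62.1 and 87.0, and of 85.0, 85.6, 60.3 and 82.9. Fbf1, a protein of cilia, used an Alt3 site at chr11:116013791-116014258 with PSI of 28.7, 27.9, 20.8 and 43.5. Its intervals in siArglu1, 10.8 to 34.1 from 53 reads and 32.8 to 54.7 from 85, overlapped. Slc20a2, a phosphate transporter, had an Alt5 site 4 nt away with PSI of 85.2, 100, 78.0 and 100, both Dex libraries above both Veh libraries, and the intervals of 65.8 to 87.5 and 96.6 to 100 in siArglu1 were separate. Anks3, an ankyrin repeat protein of cilia, had the best covered cassette of the named rises, SOK in all libraries, at 56.9, 63.2, 45.5 and 67.9. Its reads were, however, complex and unbalanced between the junctions in every library.

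Of the named falls, Srpk2, a kinase of SR splicing factors, had the largest, at an Alt5 site 27 nt away (chr5:23033715-23033880). PSI was 69.8, 73.4, 71.3 and 41.7, so that siArglu1 Dex alone was low. The intervals in siArglu1, 54.8 to 84.5 from 40 reads and 28.7 to 55.6 from 56 reads, overlapped by a small margin. Ets1, a transcription factor, had a cassette exon of 261 nt at chr9:32545684-32545944 with PSI of 100 in the other 3 libraries and 74.3 in siArglu1 Dex. Grik5, a kainate receptor subunit, followed the same pattern at an Alt5 site with 81.7, 81.2, 85.5 and 62.8, and intervals of 72.3 to 94.0 and 52.6 to 72.1 that did not overlap by a narrow margin. In contrast, 2 exons of Ntng2, a netrin-G ligand of neurons, were high in siArglu1 Veh, with PSI of 70.5, 68.4, 86.0 and 59.9 and of 56.7, 59.9, 77.9 and 56.8. Both exons had complex reads, and the second was also unbalanced in the siControl pair and in siArglu1 Dex. In siArglu1 Veh the balance of the second exon had another code (Bl). Phf8, a histone demethylase, had 60.2, 48.5, 77.4 and 53.4, Trit1, a tRNA modifying enzyme, 58.1, 49.2, 61.0 and 38.6, and Recql5, a DNA helicase, 82.7, 76.2, 91.9 and 71.3. In these 3 genes PSI was lower with Dex under both siRNAs. Lrig2, which regulates growth factor receptors, had an Alt3 site at 75, 85.1, 86.7 and 66.7, and Rpl32, a ribosomal protein, an Alt5 site at 37.5, 54.2, 43.2 and 21.2. Their intervals in siArglu1 overlapped, and in siControl both were higher with Dex.

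**Figure D4:**
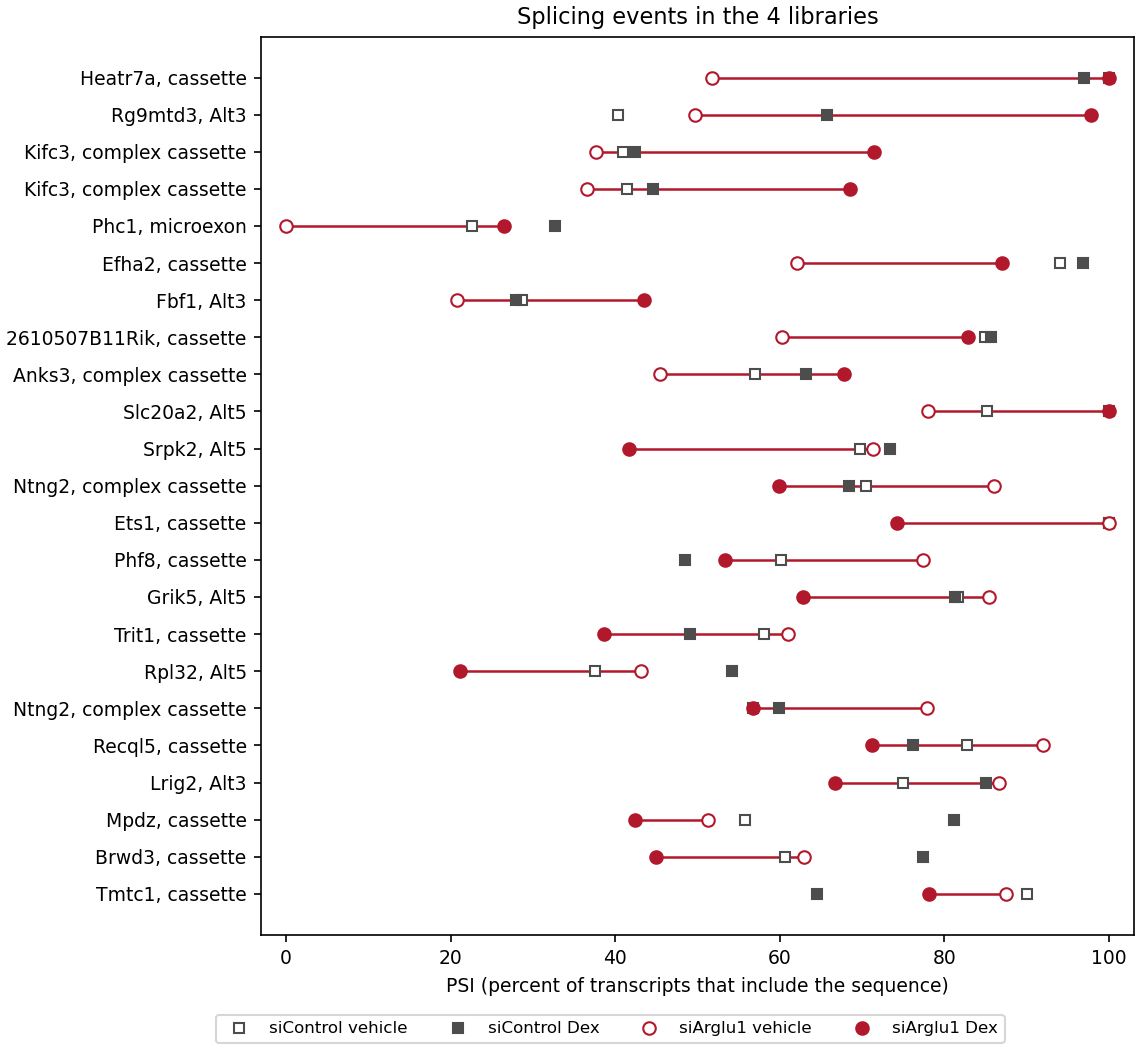
PSI (percent) in each of the 4 libraries for the 10 largest rises and 10 largest falls after knockdown among well covered events, and for 3 exons in genes the study named (rows). Circles joined by a line are siArglu1 vehicle (open) and Dex (filled), and squares are siControl. In Heatr7a, Efha2 and Phc1 the open circle stands apart from the other 3 points, and in Kifc3, Srpk2 and Ets1 the filled circle does.

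Mpdz, Brwd3 and Tmtc1 are genes with Dex-responsive splicing in the study, which also measured their events by RT-PCR in independent experiments. The exon of each gene given here was picked from these libraries by its PSI change in siControl. It was not matched to the exon that the study measured. Mpdz, a scaffold with PDZ domains, had an exon of 117 nt with PSI of 55.8, 81.2, 51.2 and 42.4, Brwd3, a bromodomain protein, one of 159 nt with 60.6, 77.4, 63.0 and 44.9, and Tmtc1, a mannosyltransferase, one of 114 nt with 90.0, 64.6, 87.5 and 78.1. Their changes in siArglu1 were -8.85, -18.0 and -9.38, against 25.4, 16.8 and -25.4 in siControl. The siArglu1 Veh scores were VLOW, VLOW and N for these 3 exons, the lowest scores in use. Junction reads are not listed for cassette exons, and no difference from siControl was read from these exons at such coverage. No event of Klf15 was in the splicing tables used here.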

How the data were processed

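Reads of 1 library per group were mapped by the authors to mm9 with Bowtie, as the submitters' processing notes name them without versions. The deposited tables hold, per gene, the raw read count and the authors' cRPKM (RPKM corrected for mappable length), and, per splicing event, the PSI in percent that the authors computed with vast-tools, with coverage scores. Library totals were 66074574, 71228049, 66590878 and 86541444 reads in the order used above. Columns of sample values not used numbered 0.

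The counts were scaled by TMM (edgeR 4.0.16, R 4.3.3), genes with under 75 reads over the 4 libraries were dropped, and log2 ratios were taken with a prior count of 1. Intervals are exact conditional binomial at 95%, and differences of ratios have Wald intervals from the 4 counts. Mappable length was derived from count and cRPKM, and its trend was fitted by lowess (span 0.3, 3 iterations; statsmodels 0.14.6). Alternatives included additive edgeR and DESeq2 1.42.0 fits. The Alt3 and Alt5 intervals are Clopper-Pearson intervals that treat PSI as a share of the listed junction reads, which is approximate since PSI is corrected for mappability. In simulated counts the size rule for genes recovered 98% of 200 altered genes, whose simulated shift was 1.5 log2 units. It also picked 24 genes that had been left unaltered. Not every step was tested on simulated data.

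Members and gene lists were chosen with earlier results of these data known. Named were Arglu1, Nr3c1, the 20 largest rises, the falls, the genes of the study's Dex tables, up to 4 members per list by size of ratio, and the 10 largest PSI changes each way at OK or better. Adra2b, Cdkn1a, Chgb, Dbh, Dusp1, Fkbp4, Hsp90aa1, Hsp90ab1, Htr3b, Klf9, Klf15, Rbm20, Rtl1, Sgk1, Tenc1, Tns1, Tsc22d3 and Zbtb16 were named after their values were seen. The rule takes 2 further genes that are not reported here. Promoters were matched by symbol to RefSeq (GRCm38.p6), a build other than that of the files, and no coordinate was carried between them.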

Additional observations from a re-analysis of the deposited data

Results flagged for a closer look

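Some values had opposite signs in the siArglu1 and siControl pairs, which share no library. With 1 library per group the differences were not tested. Prdm8 had a log2 ratio of -1.04 in siArglu1 and 1.05 in siControl. Npcd had 97, 75, 33 and 98 reads, a ratio of 1.14 in siArglu1 and one of -0.47 (-0.93 to -0.02) in siControl. Rhox4e, a homeobox gene of a cluster of near-identical copies, had 53, 32, 13 and 37 reads, a ratio of 1.05 in siArglu1 and -0.81 (-1.51 to -0.17) in siControl. Npcd and Rhox4e have only 26 and 28 nt of mappable sequence and are uncertain.

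Among splicing events, the PSI change was -22.0 in siArglu1 and 16.7 in siControl for the Rpl32 site, and -18.0 and 16.8 for the Brwd3 exon. The Rpl32 intervals overlapped within each pair, with 24 reads in siControl Dex, and the Brwd3 exon was scored VLOW in siArglu1 Veh, so neither is resolved at this depth. The rank correlation of the Dex ratio with mappable length was 0.543 in siArglu1 and -0.163 in siControl. The medians of 6 gene lists also had opposite signs in the pairs. They were 0.19 and -0.02 for nuclear receptor coregulators, 0.24 and -0.04 for chromatin genes, -0.21 and 0.05 for ribosomal protein genes, and -0.24 and 0.03 for oxidative phosphorylation genes. For smooth muscle genes they were -0.0606 and 0.005, and for stress response genes -0.0599 and 0.02. With the length trend removed from both pairs, the smooth muscle medians were 0.0051 and 0.0188 and those of the coregulators 0.036 and 0.0012, so that their signs no longer differed. Those of the stress response genes were then -0.0022 and 0.0087, still of opposite sign but small. Signs also stayed opposite for chromatin genes (0.0402 and -0.0065), ribosomal protein genes (-0.0545 and 0.0272) and oxidative phosphorylation genes (-0.0668 and 0.0138).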

How the results depend on the processing

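No paired analysis was possible because each group is 1 library with no replicate number to pair or leave out, although the additive fits below keep the siRNA as a term. The counts of 41 rises and 8 falls became 26 and 1 with a prior count of 5, and 17 and 0 from cRPKM with a pseudocount of 0.1. They were 610 and 741 with no minimum on reads, 19 and 0 with 75 reads asked of the siArglu1 libraries, and 12 and 0 with at least 300 reads over the 4. A threshold of 0.81 gave 88 and 27, and one of 1.5 gave 12 and 1. The additive edgeR fit called 124 genes higher and 6 lower, and DESeq2 called 51 and 1. The 294 and 248 splicing events became 2559 and 2209 with no coverage minimum, 67 and 62 at OK or better in both siArglu1 libraries, 11 and 3 at SOK in both, 842 and 718 at a threshold of 10, 57 and 50 at 25, and 182 and 148 without complex or unbalanced events. The correlation with length was 0.666 over genes with at least 1000 reads. With the length trend removed, list medians were 0.036 for coregulators, 0.0402 for chromatin, -0.0545 for ribosomal and -0.0668 for oxidative phosphorylation genes. The median of the study's Dex genes was 1.53 with a prior count of 5 and 1.08 from cRPKM, which shifts the median of all genes to 0.03. No named gene past the size rule changed sign under any alternative run. With the length trend removed, Nr3c1 went to -0.04, Hsp90aa1 to -0.02, and the medians of smooth muscle, receptor and chaperone, and cholesterol genes to 0.0051, 0.0075 and -0.0339. The medians of the receptor and chaperone, cholesterol and splicing regulator lists, all near 0, also changed sign with cRPKM or the GC trend removed. Of 115 named genes, 44 left their counting interval when the length trend was removed, 25 with cRPKM, 5 with the GC trend removed and 0 with DESeq2 size factors or a prior count of 0.25 or 5. Falls and weakly covered rises thus rest on few reads, and the spread among cultures is unknown.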
